A study of Arabidopsis thaliana with 16 samples.

Results

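The class III peroxidases of Arabidopsis thaliana were described here across root tips of 4 genotypes on 2 media. The family was taken as 60 listed loci with family numbers from PRX1 to PRX73. Of these, 45 loci had a probe set that the array annotation gives to that gene alone, and 36 of the 45 were bright enough to be tested: their mean log2 signal was at or above the 25th percentile of all probe sets. In all, 17059 of 22810 probe sets were tested. The study asked how mutants with a disturbed pattern of root hair cells respond to salt. All plants were of the Columbia ecotype: wild type, the double mutant wer-1 myb23-1, the double mutant cpc-1 try-82, and scm-2. Seedlings 5 days old were moved for 1 hour to fresh standard medium, the control, or to standard medium with 140 mM NaCl, and each of the 8 groups had 2 biological replicates. A replicate was a pool of about 30 root tips, each cut about 5 mm above the end of the root, so every value is an average over all cell types of the tip. Total RNA was hybridised to 1 Affymetrix ATH1 array per replicate, which gives a signal for each probe set, and 2 arrays per group limit the precision. Each mutant is represented by 1 combination of alleles.

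Class III peroxidases are secreted haem enzymes of plants that work in the cell wall. With hydrogen peroxide as the oxidant they join phenolic compounds and wall proteins, which stiffens walls and builds lignin, and in another reaction cycle they release reactive oxygen that can loosen walls. In roots, members of the family act in root hair growth, in the lignin of the Casparian strip around the endodermis, in xylem walls, and at the boundary between dividing and elongating cells, where the transcription factor UPBEAT1 (UPB1) represses several of them. The root epidermis makes hair and non-hair cells in files. WEREWOLF and MYB23 are MYB factors of the non-hair fate, CAPRICE and TRIPTYCHON are small MYB proteins that promote the hair fate, and SCRAMBLED is a receptor-like kinase that helps to place the pattern. Roots of wer mutants bear hairs in nearly all files and roots of cpc try mutants are almost hairless.

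All arrays had the same trimmed mean signal of 250.03, their median signals ran from 72.5 to 86.0, and replicate arrays correlated with r from 0.907 to 0.952 over all probe sets on the log2 scale. TRY, the only mutated gene named on the array in the annotation used here, read 481 to 870 on the 4 cpc try arrays and 1.90 to 49.7 on the other 12 arrays. Its signal was thus higher, not lower, where the gene is mutated, and the labels do not say how try-82 affects the transcript. The root hair cell markers EXPA7 and EXPA18, 2 measured of 8 listed, together read 23.4 to 74.5 in cpc try and 1119 to 2455 on the other 12 arrays. No marker of xylem cells or of the endodermis on the lists (4 each) had a probe set of its own in that annotation. The array's control for 25S ribosomal RNA averaged 2.22 times its standard medium signal on salt, from 2012 to 5229 on standard medium and from 5123 to 10299 on salt. Its part in the salt results below was not tested. The ratio of 3 prime to 5 prime signal of the GAPDH control, a sign of RNA quality, differed by genotype. It was 4.50 to 5.38 in wild type, 2.74 to 3.21 in wer myb23 and 3.02 to 3.98 in scm, without overlap between wild type and either of these mutants. In cpc try it was 3.98 and 3.13 on standard medium and 2.76 on salt replicate 2, and salt replicate 1 stood apart at 6.92, the highest of the 16 arrays. The part of this ratio in the genotype and salt results was not tested. Counts without that array are given beside cpc try against wild type and the salt response in cpc try. The comparison of wer myb23 with cpc try also uses that array and has no such count beside it.

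The other 24 loci are accounted for as follows. The annotation used here listed no probe set of its own for 11 loci: PRX1, PRX2, PRX3, PRX4, PRX32, PRX33, PRX34, PRX53, PRX60, PRX64 and PRX73. The root hair enzyme PRX73, the Casparian strip enzyme PRX64 and the oxidative burst enzymes PRX33 and PRX34 are among them and were not analysed here. PRX22 and PRX23 shared 1 probe set, and PRX50 and PRX51 shared another. The remaining 9, PRX6, PRX28, PRX36, PRX43, PRX52, PRX54, PRX58, PRX59 and PRX67, were below the filter on dim probe sets, with signals from 0.832 to 63.7 and medians over the 16 arrays from 3.38 to 18.9. Without the filter none of these 9 passed in any of 12 comparisons at an adjusted p under 0.05. The smallest limma adjusted p was 0.057, and 7 of 108 tests had an unadjusted p under 0.05.

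**Figure D1:**
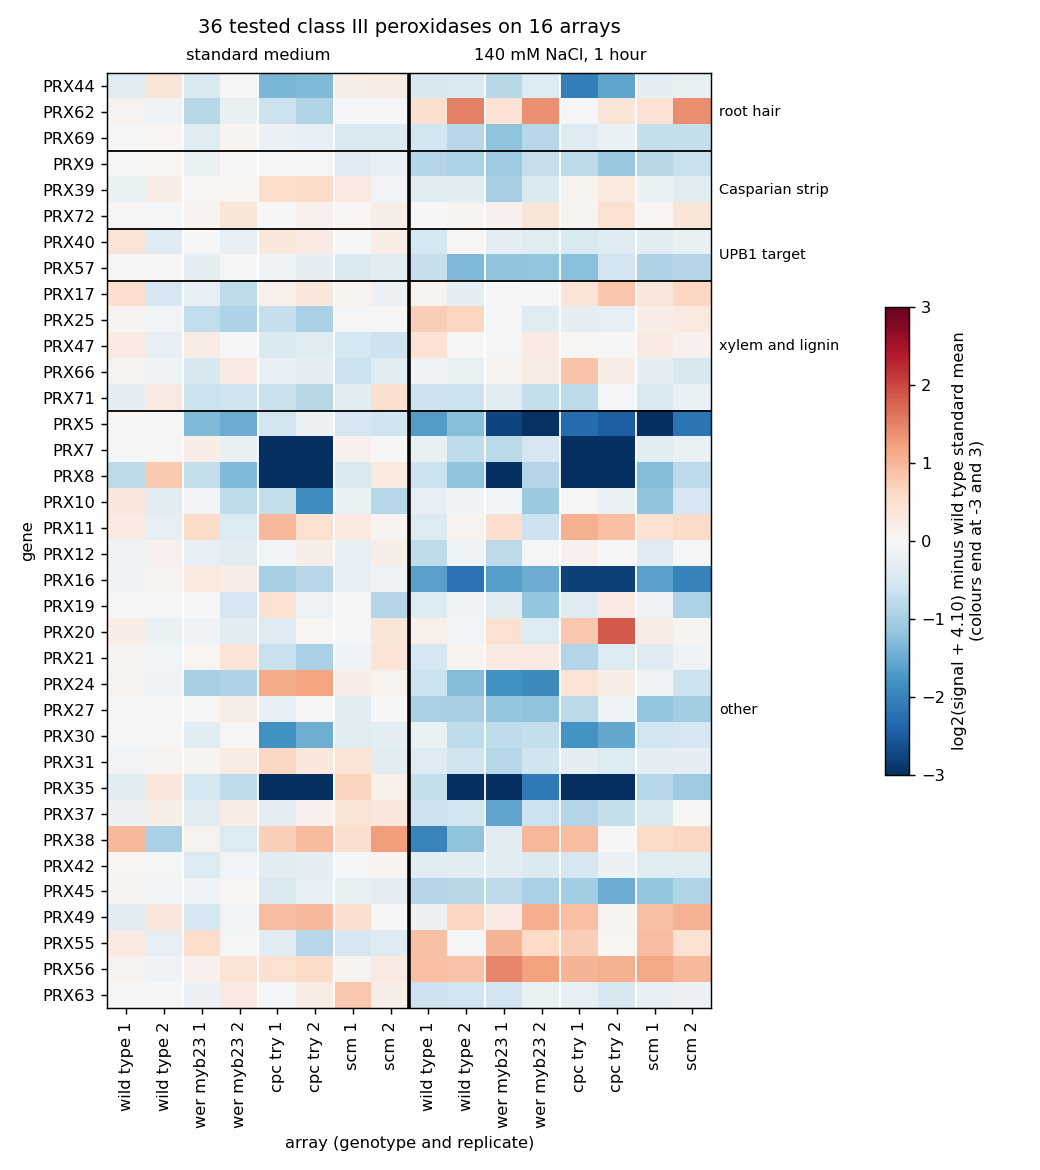
Heat map of the 36 tested peroxidases (vertical axis, grouped by known role) on the 16 arrays (horizontal axis, standard medium left, 140 mM NaCl right). Colour is log2(signal + 4.10) minus the mean of the 2 wild type standard arrays, and colours end at -3 and 3. The dark blue blocks of PRX7, PRX8 and PRX35 in cpc try and the paler blue of many genes on salt are the main features.

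The largest differences of single members lay between cpc try and wild type, and the most members were called in the averaged salt response. A probe set was called changed at a limma adjusted p under 0.05, with Benjamini-Hochberg adjustment over all 17059 probe sets, and differences are on the scale of log2(signal + 4.10) with their standard error. In cpc try against wild type over both media, 14 of 36 peroxidases (38.9%) were called, 10 lower and 4 higher, where 11.6% of all probe sets were called, 6.91% lower and 4.71% higher. Without cpc try salt replicate 1, which had the high GAPDH ratio, 14 were called as well, 9 lower and 5 higher, and 12 of them were among the former 14. On salt, averaged over the genotypes, 22 of 36 (61.1%) were called, 17 lower and 5 higher. Of all probe sets 26.5% were called in that comparison, 12.8% lower and 13.6% higher. The share of peroxidases called higher on salt, 13.9%, was thus near the background, while the share called lower, 47.2%, was above it. The median difference of the members on salt was -0.30, against 0.00 over all probe sets. In cpc try it was -0.05, against -0.02. Of the 36 tested members, 28 were called in at least 1 of the 12 comparisons and 8 in none, where 38.1% of all probe sets were called in at least 1.

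**Figure D2:**
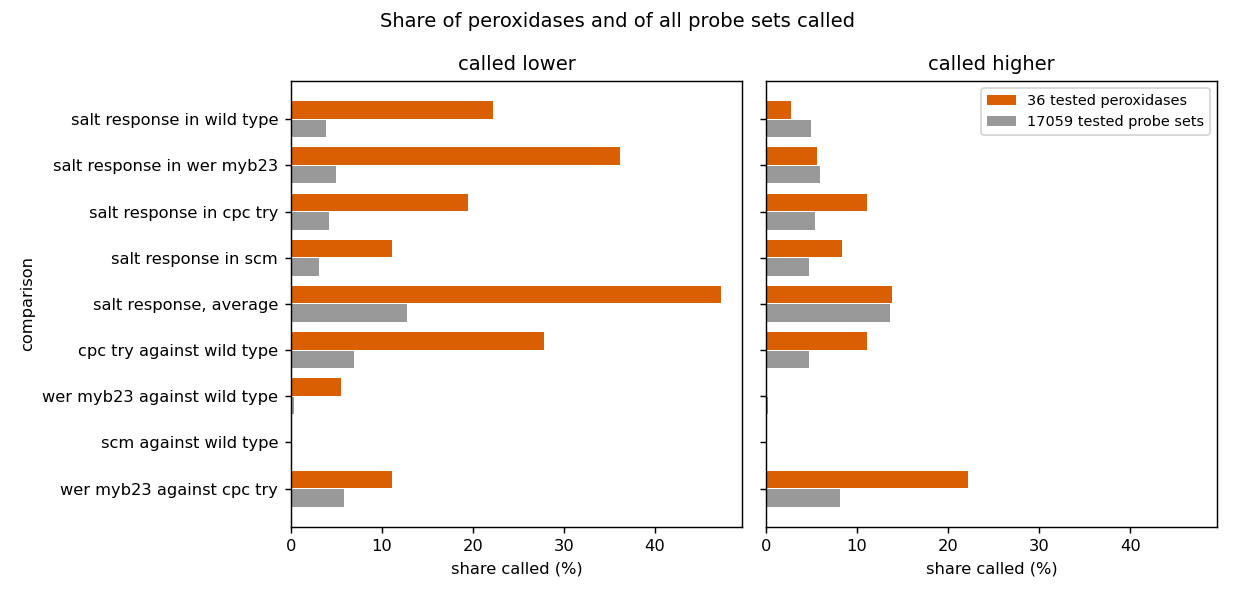
Share of the 36 tested peroxidases (orange) and of all 17059 tested probe sets (grey) called lower (left) and higher (right) in 9 comparisons (vertical axis), in percent (horizontal axis, starting at 0). The orange bar for lower calls reaches 47.2% in the averaged salt response, where the grey bar is at 12.8%.

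Setting cpc try against wild type asks which peroxidases differ where root hairs are nearly absent. PRX7, PRX35 and PRX8 were almost lost in cpc try on both media. PRX7 (AT1G30870) read 2129 and 2210 in wild type on standard medium and 1847 and 1281 on salt. In cpc try it read 1.90 and 2.03 on standard medium and 2.42 and 26.9 on salt. The lowest wild type array was thus far above the highest cpc try array. The difference over both media was -7.62 ± 0.29 (limma adjusted p = 9.6e-14). In the other mutants PRX7 read near the wild type level, 1229 to 2493 over 4 wer myb23 arrays and 1745 to 2373 over 4 scm arrays.

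PRX35 (AT3G49960) read 314 and 493 in wild type on standard medium and 236 and 40.3 on salt, against 1.83, 1.72, 1.69 and 5.45 on the 4 cpc try arrays. PRX8 (AT1G34510) read 94.9 and 286 in wild type on standard medium and 104 and 68.8 on salt, against 2.52, 1.30, 2.26 and 4.17 in cpc try. Neither gene's cpc try arrays came near the lowest wild type array. The differences were -4.94 ± 0.47 for PRX35 (limma adjusted p = 2.4e-07) and -4.22 ± 0.50 for PRX8 (limma adjusted p = 4.6e-06). Apart from 1 PRX7 array, the cpc try signals of these 3 genes were at or near the 4.10 added before the logarithm, so the size of each difference is set in part by that value. These 3 genes passed the filter on dim probe sets through the other genotypes. In bulk tissue, fewer cells of a type and less RNA per cell cannot be told apart, here and below.

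Of the 6 peroxidases with a known role in root hair growth, 3 were measured, and 2 of them were called lower in cpc try. Of all probe sets 6.91% were called lower there. PRX44 (AT4G26010), which acts in the wall of growing hairs, read 1853 and 3048 in wild type on standard medium and 1702 and 1757 on salt. In cpc try it read 916 and 949 on standard medium and 571 and 790 on salt, below every wild type array but far above the levels of PRX7 relative to wild type. The difference was -1.35 ± 0.14 (limma adjusted p = 1.1e-06). PRX62, known for hair growth at low temperature, read 143 to 447 over the 4 wild type arrays and 80.2 to 199 over the 4 cpc try arrays, and these ranges overlap. Its difference of -0.81 ± 0.26 only just passed (limma adjusted p = 0.045) and was called in 7 of 17 alternative settings. PRX69, named with PRX62 in the same role, was not called, at 0.11 ± 0.11 with a 95% interval from -0.12 to 0.34.

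**Figure D3:**
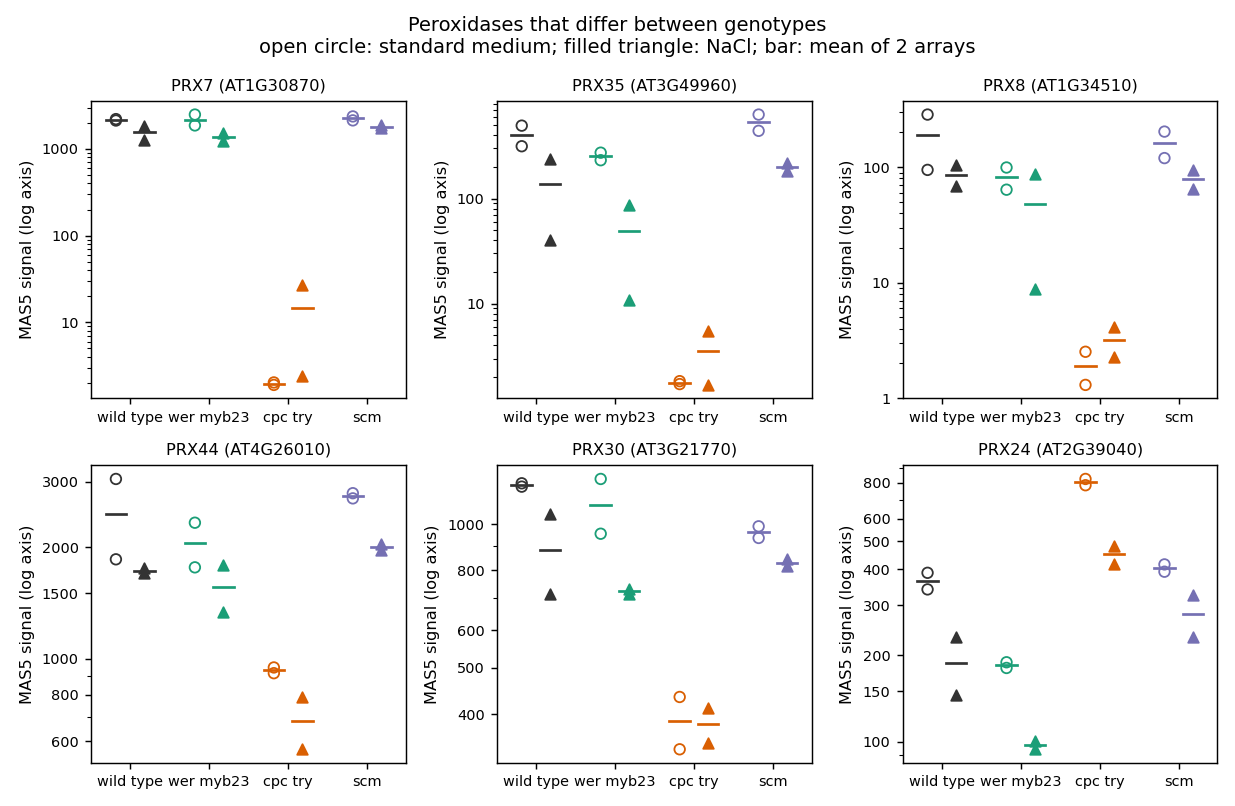
Signal (vertical axes, log scale, arbitrary array units) of 6 peroxidases by genotype (horizontal axes), with each array as a point, standard medium as open circles, NaCl as filled triangles and bars for the mean of 2 arrays. PRX7, PRX35 and PRX8 lie far below the other genotypes in cpc try, with signals from 1.30 to 26.9, PRX44 and PRX30 are lower there, and PRX24 is highest in cpc try and lowest in wer myb23.

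A further 4 peroxidases, without a role assigned here, were also lower in cpc try. PRX30 (AT3G21770) read 1218 and 1198 in wild type on standard medium and 1052 and 715 on salt, and 338, 435, 348 and 413 in cpc try. All cpc try arrays were below all wild type arrays, with a difference of -1.42 ± 0.13 (limma adjusted p = 1.6e-07). PRX16 fell by 0.90 ± 0.12 (limma adjusted p = 2.4e-05) and PRX21 by 0.62 ± 0.14 (limma adjusted p = 0.0064). PRX16 was lower within each medium, with 1870 and 2055 against 3499 and 4018 on standard medium and 533 and 539 against 1218 and 799 on salt. PRX21 lost its call without a trend in the spread (limma adjusted p = 0.079). It also lost it without wild type salt replicate 2, where the difference was -0.47. PRX45 was lower by a small step, -0.37 ± 0.11 (limma adjusted p = 0.028), and was called in 8 of 17 alternative settings.

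Where 11.6% of all probe sets were called in cpc try, 1 of 5 tested xylem and lignin peroxidases was called. This was PRX25, at -0.90 ± 0.23 (limma adjusted p = 0.011). It read 80.0 to 146 over the wild type arrays and 41.5 to 70.9 in cpc try, without overlap. With only the arrays compared in the fit PRX25 was not called (limma adjusted p = 0.053). PRX47 and PRX66, enzymes of vessel walls, were not called, at -0.30 ± 0.14 and 0.21 ± 0.16. Of 3 Casparian strip peroxidases 1 was called higher, where 4.71% of all probe sets were. This was PRX39, at 0.53 ± 0.13 (limma adjusted p = 0.0081). PRX39 read 1445 and 1487 in cpc try against 886 and 1151 in wild type on standard medium, and 1080 and 1230 against 804 and 795 on salt, so the arrays separate within each medium. Its call was lost without a trend in the spread (limma adjusted p = 0.061). It was also lost without wild type standard replicate 1, where the difference was 0.44. PRX9 and PRX72 were not called, with 95% intervals from -0.32 to 0.22 and from -0.08 to 0.38. Of the UPB1 targets, PRX40 and PRX57 were not called, while PRX39, which is also a UPB1 target, was called higher as given above.

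PRX24 (AT2G39040) was the member with the largest rise in cpc try among those called. It read 389 and 340 in wild type and 786 and 826 in cpc try on standard medium, and 231 and 146 in wild type and 484 and 418 in cpc try on salt. Every cpc try array was above every wild type array, and the difference was 1.21 ± 0.16 (limma adjusted p = 1.5e-05). PRX11 read 92.7 to 151 in wild type and 173 to 267 in cpc try, at 0.92 ± 0.25 (limma adjusted p = 0.019). Its call was lost without wild type standard replicate 2, wild type salt replicate 1 or cpc try standard replicate 1 (adjusted p = 0.084, 0.076 and 0.092). PRX56 was higher by 0.34 ± 0.11 (limma adjusted p = 0.047), a call that 6 of 17 alternative settings kept. Over both media, 8 of the 36 members did not overlap between the 4 cpc try and the 4 wild type arrays, as against 9.84% of all probe sets. Centring each array on its median moved the median of all probe sets from -0.02 to 0.11 in this comparison, and no called member changed its direction. With this centring 8 members were called lower and 5 higher, 12 of them as before, where 2451 of 17059 probe sets were called. PRX45, at -0.23, and PRX62, at -0.68, were then not called (limma adjusted p = 0.17 and 0.083).

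In wer myb23, where most files bear hairs, 2 of 36 peroxidases were called against wild type, both lower, where 0.510% of all probe sets were called and 0.328% were lower. PRX24 read 181 and 189 on standard medium, against 389 and 340 in wild type, and 101 and 94.1 on salt, against 231 and 146. It was lower on both media, at -0.92 ± 0.16 (limma adjusted p = 0.0069). PRX24 thus lay below wild type in wer myb23 and above it in cpc try, and the contrast of the 2 mutants themselves was -2.13 ± 0.16 (limma adjusted p = 3.9e-09). PRX5 (AT1G14550) read 94.6 and 84.3 in wer myb23 against 247 and 238 in wild type on standard medium, and 32.4 and 27.7 against 72.8 and 98.3 on salt. It was lower within each medium, at -1.39 ± 0.27 (limma adjusted p = 0.018). The PRX5 call was lost when 1 of 5 arrays was left out: wild type standard replicate 1 or 2 (adjusted p = 0.058 and 0.062), wer myb23 standard replicate 1 or 2 (0.065 and 0.10) or wer myb23 salt replicate 2 (0.055). PRX25 read 42.9 to 82.8 in wer myb23 against 80.0 to 146 in wild type, at -0.87 ± 0.23 (limma adjusted p = 0.089). Without a trend in the spread, PRX24 and PRX5 were not called (limma adjusted p = 0.086 and 0.10) and PRX25 was the 1 member called.

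PRX7, PRX35 and PRX8, nearly lost in cpc try, and PRX44, lower there, were not called higher in wer myb23. PRX7 differed from wild type by -0.09 with a 95% interval from -0.69 to 0.51, and PRX44 by -0.19 with an interval from -0.49 to 0.10. PRX35 and PRX8 had estimates below 0, -1.06 ± 0.47 and -1.19 ± 0.50, that did not pass (limma adjusted p = 0.36 and 0.32). Set against cpc try directly, wer myb23 had 8 peroxidases called higher and 4 lower (33.3% called), where 14.0% of all probe sets were called, 8.14% higher and 5.86% lower. The higher ones were PRX7, PRX35, PRX8, PRX30, PRX16, PRX44, PRX21 and PRX45, and the lower ones PRX24, PRX11, PRX39 and PRX69. Of 17 alternative settings, 8 kept the call of PRX69, 9 that of PRX45 and 11 that of PRX11. PRX69 moved from -0.34 to -0.23 without wer myb23 standard replicate 1 (adjusted p = 0.25), PRX11 from -0.84 to -0.56 without wer myb23 salt replicate 2 (0.18), and PRX45 from 0.34 to 0.22 without cpc try salt replicate 2 (0.16). This contrast and the comparison with wild type share the cpc try arrays, so they are not independent.

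In scm no peroxidase was called against wild type over both media, where 0.141% of all probe sets were called. At an unadjusted p under 0.05 there were 6 members, and the smallest limma adjusted p was 0.17, for PRX5 at -0.98 ± 0.27. PRX5 read 171 and 158 in scm against 247 and 238 in wild type on standard medium, and 16.4 and 50.1 against 72.8 and 98.3 on salt. PRX7 differed by 0.14 with a 95% interval from -0.45 to 0.74, and PRX44 by 0.21 with an interval from -0.09 to 0.51.

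The salt comparison asks which peroxidases move within 1 hour of transfer to NaCl. PRX16, PRX45 and PRX5 were called lower in all 4 genotypes and PRX56 was called higher in all 4. The share of all probe sets called in all 4 genotypes was not counted. PRX16 (AT2G18980) read from 1870 to 4601 with a median of 3460 over the 8 standard arrays and from 533 to 1332 with a median of 1064 over the 8 salt arrays. Its salt arrays were all below its standard arrays, although it also differed between genotypes. Averaged over genotypes it fell by 1.80 ± 0.09 (limma adjusted p = 1.1e-12), and within genotypes by 1.62 to 1.92. This gene kept its calls in all 4 genotypes under every alternative setting tried.

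**Figure D4:**
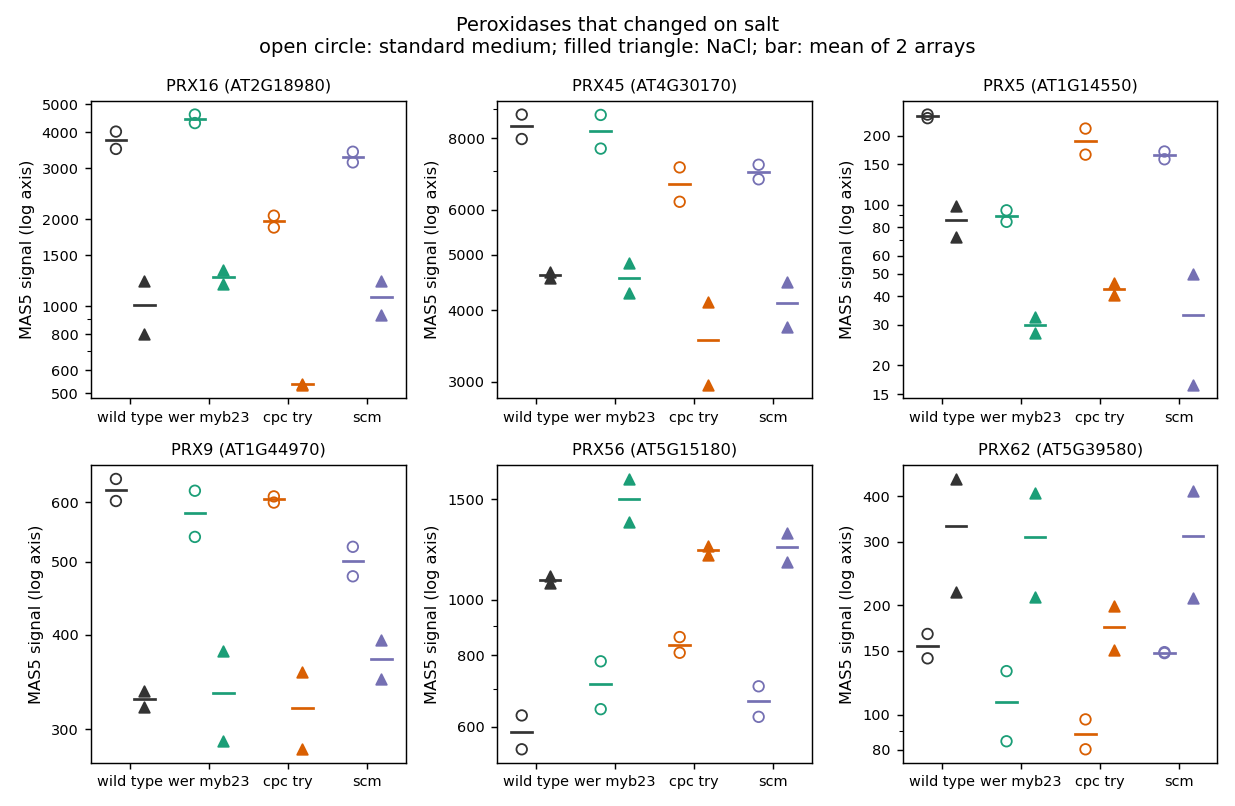
Signal (vertical axes, log scale, arbitrary array units) of 6 peroxidases by genotype (horizontal axes), with each array as a point, standard medium as open circles, NaCl as filled triangles and bars for the mean of 2 arrays. PRX16, PRX45, PRX5 and PRX9 are lower on NaCl in each genotype and PRX56 and PRX62 are higher.

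PRX45 (AT4G30170) read 8796 and 7972 in wild type on standard medium and 4554 and 4669 on salt. The mutants showed the same step, from 6193 to 8784 on standard medium and from 2965 to 4837 on salt. The averaged difference was -0.85 ± 0.08 (limma adjusted p = 1.8e-08). PRX5 read from 84.3 to 247 on standard medium and from 16.4 to 98.3 on salt. These ranges overlap across genotypes but not within any of them, and the averaged difference was -1.83 ± 0.19 (limma adjusted p = 2.2e-07). PRX56 (AT5G15180) read from 548 to 861 with a median of 675 on standard medium and from 1069 to 1626 with a median of 1221 on salt. Its arrays did not overlap, and it rose by 0.85 ± 0.08 (limma adjusted p = 2.3e-08). Within single genotypes some of these calls were lost when 1 array was left out. PRX5 lost its call in wild type without standard replicate 1 or 2 or salt replicate 1 (adjusted p from 0.081 to 0.10), and in wer myb23 without any 1 of its 4 arrays (0.062 to 0.11). PRX45 lost its call in scm without salt replicate 1 (0.053), and PRX56 in cpc try without any 1 of its 4 arrays (0.056 to 0.145).

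By role, all 3 measured root hair peroxidases were called on salt in the average, in both directions, where 26.5% of all probe sets were. PRX62 (AT5G39580) read from 80.2 to 167 with a median of 137 on standard medium and from 150 to 447 with a median of 214 on salt. In each genotype both salt arrays were above both standard arrays. Its rise of 1.09 ± 0.18 was the largest among the members (limma adjusted p = 9.2e-05). PRX44 fell by 0.44 ± 0.10 (limma adjusted p = 0.0023) and PRX69 by 0.49 ± 0.08 (limma adjusted p = 4.3e-05). PRX69 read 6729 and 7394 on standard medium and 4753 and 3872 on salt in wild type, whereas in cpc try it read 6253 and 5950 on standard medium and 5404 and 6180 on salt, which overlap. EXPA18, one of the hair cell markers, also fell on salt, by 1.11 ± 0.21 (limma adjusted p = 0.00029). The marker EXPA7 was not called in the average, at 0.37 ± 0.14 (limma adjusted p = 0.052). Its mean signal on standard medium and on salt was 942 and 982 in wild type and 837 and 947 in scm. In wer myb23 it was 1038 and 752. In cpc try EXPA7 was called higher on salt. It read 5.84 and 4.96 on standard medium and 41.7 and 17.3 on salt there. These standard signals were near the value added before log2, so the cpc try and the averaged difference are set in part by that value.

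Of the 3 Casparian strip peroxidases 2 were called lower on salt, where 12.8% of all probe sets were. PRX9 (AT1G44970), which also acts with PRX40 on the wall of the anther tapetum, read from 478 to 644 with a median of 601 on standard medium and from 282 to 393 with a median of 344 on salt. No array overlapped, and it fell by 0.76 ± 0.09 (limma adjusted p = 1.3e-06). PRX39, which is also a UPB1 target, fell by 0.46 ± 0.09 (limma adjusted p = 0.00054). PRX72 read from 1550 to 2055 on standard medium and from 1601 to 2188 on salt, at 0.09 with a 95% interval from -0.07 to 0.25, and was not called. Both other UPB1 targets were called lower. PRX57 (AT5G17820) read from 4207 to 5750 on standard medium and from 2257 to 3827 on salt, without overlap, and fell by 0.82 ± 0.10 (limma adjusted p = 1.0e-06). PRX40 was at the threshold, -0.38 ± 0.14 (limma adjusted p = 0.049), and 6 of 24 alternative settings kept the call.

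None of the 5 tested xylem and lignin peroxidases was called lower on salt and 2 were called higher. Of all probe sets 12.8% were called lower and 13.6% higher. PRX25 read 91.3 and 80.0 in wild type on standard medium and 146 and 136 on salt. In every genotype both salt arrays were above both standard arrays, and the averaged rise was 0.54 ± 0.16 (limma adjusted p = 0.016). PRX47 rose by 0.36 ± 0.10 (limma adjusted p = 0.011). In scm it read 284 and 269 on standard medium and 494 and 452 on salt, whereas in wild type its 494 and 346 overlapped 561 and 416. PRX17, PRX66 and PRX71 were not called in the average, at 0.32 ± 0.19, 0.26 ± 0.11 and -0.16 ± 0.12. PRX71, known from lignin laid down after wall damage, read 1545 and 2218 against 1207 and 1187 on salt in wild type, and 1157 and 1035 against 1071 and 1769 in cpc try.

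Of the 23 tested members without a role assigned here, 11 were called lower on salt and 2 higher. The shares of all probe sets were 12.8% and 13.6%. Beside PRX16, PRX5 and PRX45, the falls were PRX35 by 1.45, PRX27 by 0.89, PRX24 by 0.81, PRX37 by 0.73, PRX31 by 0.63, PRX63 by 0.54, PRX30 by 0.32 and PRX42 by 0.22 on the log2 scale. PRX42 kept its call in 20 of 24 alternative settings, and lost it with quantile normalization (-0.15, adjusted p = 0.12), without a trend in the spread (0.091), and without wer myb23 standard replicate 2 (0.070) or scm standard replicate 2 (0.053). PRX30 lost its call without a trend in the spread (0.058). PRX27 (AT3G01190) read 7141 and 7575 against 3773 and 3663 on salt in wild type, 7488 and 8316 against 3308 and 3200 in wer myb23, and 5849 and 7335 against 3267 and 3549 in scm. In cpc try it read 6185 and 7322 against 4190 and 6644, which overlap, and it was not called there. PRX37 fell while PRX38, its neighbour on chromosome 4, was not called at -0.44 ± 0.39 on a dim signal of 2.50 to 57.3. The rises were PRX56 and PRX55. PRX55 read from 122 to 328 on standard medium and from 215 to 460 on salt, ranges that overlap, and rose by 0.78 ± 0.16 (limma adjusted p = 0.00067).

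**Figure D5:**
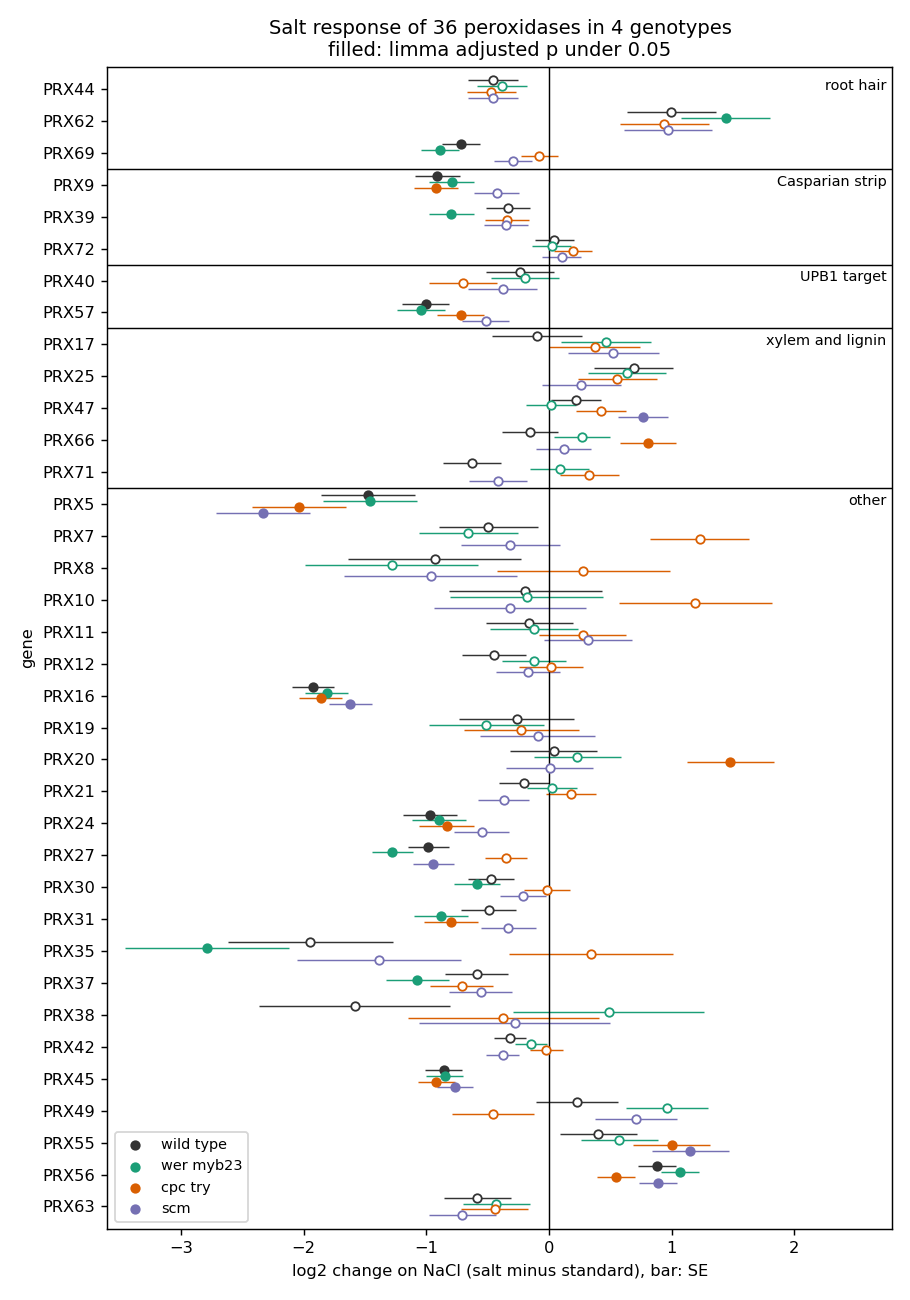
Log2 difference on NaCl, salt minus standard (horizontal axis), for the 36 tested peroxidases (vertical axis, grouped by known role) in each of the 4 genotypes (colours). Points are estimates, bars their standard error, and filled points have a limma adjusted p under 0.05. PRX16, PRX45 and PRX5 are filled left of 0 in all 4 genotypes and PRX56 right of 0. Other genes are filled for 1 genotype only, such as PRX20 and PRX66 for cpc try and PRX37 and PRX62 for wer myb23.

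Taken genotype by genotype, 9 of 36 peroxidases were called on salt in wild type, 1 higher and 8 lower, where 8.89% of all probe sets were called, 4.99% higher and 3.89% lower. In wer myb23, 2 were higher and 13 lower (of all probe sets 5.98% and 4.99%). In cpc try, 4 were higher and 7 lower (of all probe sets 5.42% and 4.19%, together 9.61%), and with arrays centred on their medians 2 were higher and 7 lower. Without cpc try salt replicate 1, the array with the high GAPDH ratio, 2 were higher and 6 lower, 7 of these 8 being among the former 11. In scm, 3 were higher and 4 lower (of all probe sets 4.72% and 3.12%, together 7.84%). In all, 19 members were called in at least 1 genotype, where 18.2% of all probe sets were, and no member was called in opposite directions. How many of all probe sets were called in opposite directions was not counted. The sign of the estimate was negative in all 4 genotypes for 17 members and positive in all 4 for 7, against 19.2% and 19.7% of all probe sets, so the count of positive members is near the background. The members had a median difference of -0.45 in wild type, of -0.29 in wer myb23, of -0.33 in scm and of -0.02 in cpc try, against 0.01, 0.00, -0.01 and 0.00 over all probe sets. Some members were called on salt in 1 genotype only. These were PRX30, PRX35, PRX37, PRX39 and PRX62 in wer myb23, PRX47 in scm, and PRX20 and PRX66 in cpc try. The share of all probe sets called in 1 genotype only was not counted. Of 13 alternative settings, 9 kept the call of PRX30, 10 those of PRX35, PRX37 and PRX62, 12 that of PRX39 and 8 that of PRX47. Without wer myb23 salt replicate 1, PRX35 moved from -2.79 to -1.48. In cpc try PRX20 read 78.1 and 108 on standard medium and 183 and 378 on salt, a rise of 1.48 ± 0.35 (limma adjusted p = 0.0091). It read 75.9 to 143 on all other arrays. Without cpc try standard replicate 1 or salt replicate 2 the PRX20 call was lost (adjusted p = 0.098 and 0.17). PRX66 rose there by 0.80 (limma adjusted p = 0.028), and 8 of 13 alternative settings kept its call. Without cpc try salt replicate 1 the PRX66 difference was 0.48 (adjusted p = 0.28), and without standard replicate 1 or 2 its adjusted p was 0.11 and 0.14.

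A call in one genotype and not in another does not show that the responses differ, so the differences were tested themselves. No peroxidase was called for a salt response in cpc try, wer myb23 or scm that differs from wild type, where 0.0176%, 0.00586% and 0% of all probe sets were called. At an unadjusted p under 0.05 there were 7 members for cpc try, 1 for wer myb23 and 0 for scm, and the smallest limma adjusted p values were 0.38, 0.95 and 1.0. In cpc try the largest differences from wild type were 2.28 ± 0.95 for PRX35 and 1.72 ± 0.57 for PRX7, the genes that are nearly absent there. Without cpc try salt replicate 1, which read 2.42 for PRX7 beside 26.9 in its partner, the PRX7 difference was 2.85 ± 0.29 and was called (limma adjusted p = 0.00012). That value rests on 1 cpc try salt array set against standard arrays of 1.90 and 2.03, under the 4.10 added before log2, so its size is set in part by the added value. The differences of PRX66 and PRX20 were 0.96 ± 0.32 and 1.44 ± 0.50, neither of them called. Among the other 3 pairs of genotypes, compared after the data were seen, no member was called either, with smallest adjusted p values of 0.18 for wer myb23 minus cpc try, 0.65 for scm minus cpc try and 0.76 for wer myb23 minus scm. Of all probe sets, 0.182%, 0.0117% and 0% were called in these pairs.

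The shared probe sets gave 1 call. The probe set of PRX22 and PRX23 read 736 to 980 in wild type and 466 to 732 in cpc try, without overlap, at -0.55 ± 0.17 (limma adjusted p = 0.044), and signal of the 2 genes cannot be separated. On salt it was not called, at 0.27 ± 0.12. The probe set of PRX50 and PRX51 was called in no comparison.

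Partners of the peroxidases were read from lists of the same pathway. Extensins are wall proteins that peroxidases join to each other, and 6 of 15 listed were tested. In cpc try 4 were called lower and 1 higher, where 6.91% and 4.71% of all probe sets were. The lower ones were HRGP1 (AT3G54590) by -3.92 ± 0.24, AT3G54580 by -3.80 ± 0.29, AT4G08410 by -2.89 ± 0.34 and AT5G06630 by -2.86 ± 0.20. The higher one was AT3G28550, by 0.45 ± 0.11. The names of several of these probe sets mark sequence shared with other genes. On salt, averaged over genotypes, 5 of the 6 extensins were called lower, where 12.8% of all probe sets were. Among them were HRGP1 by -0.71 ± 0.17 and AT1G23720 by -0.68 ± 0.11. Within genotypes 2 extensins were called lower in wild type, 3 in wer myb23 and 0 in scm. The shares of all probe sets called lower there were 3.89%, 4.99% and 3.12%. In cpc try 0 were called lower on salt and 1 was called higher (of all probe sets 4.19% and 5.42%). With 6 members, 0 called lower is near these shares. No extensin was called for a salt response that differs from wild type, where 0.0176% of all probe sets or fewer were. The repressor UPB1 rose on salt by 0.39 ± 0.14 (limma adjusted p = 0.040), a call kept in 10 of 24 alternative settings. Within genotypes UPB1 was called in scm, at 1.00 ± 0.28 (limma adjusted p = 0.028), and not in wild type, wer myb23 or cpc try, at 0.09, 0.46 and 0.04. Its target PRX57 was called lower in wild type, wer myb23 and cpc try and not in scm, at -0.52 ± 0.19 (limma adjusted p = 0.13). In cpc try 8 of 13 alternative settings kept the PRX57 call. The difference there moved from -0.72 to -0.37 without salt replicate 1, the array with the high GAPDH ratio. The salt response in scm did not pass as different from wild type for either gene (limma adjusted p = 1.0 for both). Of 19 monolignol synthesis genes, which make the substrates of lignin, 2 were tested, and CCR2 rose by 1.41 ± 0.19 (limma adjusted p = 5.0e-06) while HCT was not called, at 0.16 ± 0.08. None of 3 tested NADPH oxidases (of 10 listed), which make the superoxide that becomes hydrogen peroxide, was called on salt or in cpc try. Neither were the Casparian strip genes GSO1 and AT1G61590 (2 of 9). Of all probe sets 26.5% were called in the averaged salt response and 11.6% in cpc try. Lists of 2 or 3 tested genes with 0 called are near these shares. None of the 12 listed scavenger genes for hydrogen peroxide and superoxide had a probe set of its own in the annotation used here.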

How the data were processed

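Titles and descriptions gave each array its genotype and medium. For mutant arrays titled standard, another label entry names NaCl medium, and gives 4 days for cpc try and scm where the other labels give 5, and it was not followed. The authors deposited MAS5 signals (named in the submitters' processing notes), an intensity on a linear scale for each probe set. The MAS5 version and settings are not stated in the labels, and detection calls were not used. MAS5 signals of dim probe sets are noisy, and scaling every array to 1 trimmed mean hides any change in total RNA.

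The 10th percentile of the table, 4.10, was added to each signal before log2, which shrinks differences of dim genes. After leaving out 64 control probe sets, probe sets whose mean log2 signal lay under the 25th percentile were dropped. A model of 8 group means was fitted over the 16 arrays in limma 3.58.1 (R 4.3.3), with empirical Bayes moderation and a trend (8 residual and 12.0 prior degrees of freedom). The 12 contrasts were tested two-sided and adjusted by Benjamini-Hochberg over 17059 probe sets. The same steps were tested on simulated data. Alternatives changed the value added, the filter, the scaling, the trend, the arrays fitted, a replicate block, and left out each array.

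Genes were named from the platform annotation (13513 probe sets with 1 gene, 503 with several), joined to RefSeq gene identifiers of the TAIR10.1 table. Family numbers follow the family's standard numbering; 12 loci carry one in that table and all 12 match. Signals of different probe sets were not set against each other. The members, their roles and the lists were chosen with earlier results of these data known. Any of the 60 loci with a probe set of its own could be named. Values on single arrays are given for called members with the smallest adjusted p and for each role, and from the other lists for called members. No sequences were used here. Replicate numbers did not pair the arrays: over 28 pairs of groups, differences between replicates correlated with r from -0.034 to 0.052.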

Additional observations from a re-analysis of the deposited data

How the results depend on the processing

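The 92 calls of single peroxidases in single comparisons were recomputed under each alternative, 1548 recomputed values in all. Of these, 1374 stayed past the threshold in the same direction, 174 no longer passed, and none reversed. The cause of the losses was not tested, except that leaving out arrays lowers the number of values. The number of called members moved by over 1.5 times in few settings. Without a trend in the spread it was 8 for cpc try against wild type, 5 for salt in cpc try and 1 for wer myb23 against wild type, PRX25, which was not called with the trend. With only the arrays compared in the fit it was 6 for salt in cpc try and 11 for salt in scm.

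When 1 array was left out, the lone array of its group being assumed to vary like the others, the number of called members ran from 6 to 11 for salt in wild type, 9 to 12 for salt in wer myb23, 4 to 8 for salt in cpc try, and was 5 for salt in scm. It ran from 20 to 24 for the averaged salt response, 10 to 14 for cpc try against wild type, 1 to 2 for wer myb23 against wild type and 9 to 14 for wer myb23 against cpc try. The lowest counts came without wer myb23 standard replicate 2 or salt replicate 1 (9 each) and without cpc try standard replicate 1 or 2 (4 and 5). It was 0 for scm against wild type and for the salt responses of scm and wer myb23 minus wild type, and 0 to 1 for cpc try minus wild type.

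With the replicate number as a block, which marks no shared origin here, the counts were 14 for cpc try against wild type, 21 for the averaged salt response and 2 for wer myb23 against wild type, and 13 for wer myb23 against cpc try. They were 10, 15, 12 and 7 for salt in wild type, wer myb23, cpc try and scm, and 0 for the other comparisons. The alternative of the dimmest probe set was not run, since each member had 1 probe set, and the averaged salt response uses all arrays in any case.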
